A study of Mus musculus with 4 samples.

Results

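The set of 10 immunoglobulin and plasma cell genes was followed in RNA of mouse platelets. They are the heavy chain constant region genes Igha, Ighm and Ighd, the light chain constant region genes Igkc, Iglc1, Iglc2 and Iglc3, and the antibody assembly and secretion genes Jchain, Mzb1 and Xbp1. They were taken by gene name from the deposited tables, and all 10 were found, among 17995 genes listed in either table. There were 4 libraries, 1 per group, each made from the pooled platelets of 7 male mice. Old mice were wild-type and 24 months of age and were set against wild-type Young mice of 3 months. Mice with a conditional, platelet-specific knockout of HuR (cKO) were set against their wild-type littermates (WT), both at 3 months. The sources used here name neither the promoter that drives the recombinase nor the exons removed.

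An antibody consists of paired heavy and light chains, each with a variable part that binds antigen and a constant part. Mature B cells that have not met antigen make the mu and delta heavy chains together, by alternative splicing of 1 long precursor RNA, and class switching replaces them with gamma, alpha or epsilon. Light chains are kappa or lambda. Plasma cells, the antibody-secreting end stage of the B cell lineage, carry large amounts of immunoglobulin mRNA, and Xbp1, Mzb1 and Jchain serve the folding, assembly and export of the product. Platelets have no nucleus and take their mRNA from megakaryocytes, which are not an antibody-producing lineage, and a platelet preparation can hold other blood cells.

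The tables hold read numbers scaled within each table, from which whole reads were recovered. Read totals ranged from 17702341 to 18472149 per library. Levels are given as RPM, the reads of a gene scaled to 1e6 reads of the library, or, between genes, as RPM per kilobase of the deposited gene length. Ratios use library sizes scaled by the trimmed mean of M values (TMM) and carry an exact 95% interval, which covers counting error only, since there is no replicate and the spread between pools of mice is unknown. The words rose and fell are kept for genes that had 100 reads or more in 1 of the compared libraries and an interval lying wholly beyond a 2-fold difference. All 20 platelet markers had reads in each library, with 6.35% to 8.26% of all reads. Elavl1, the gene that encodes HuR, had 1481 reads in the library labelled cKO and 876 in WT, and 527 in Old and 621 in Young. Its ratio of 1.66 (1.53 to 1.81) goes against the knockout label, so directions below are those of the library labelled cKO. Counts per gene do not show whether an exon was removed.

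Immunoglobulin RNA was a small part of each library. The 7 constant region members held 0.0116% of reads in Old and 0.0333% in Young, and 0.0332% in the library labelled cKO and 0.0450% in WT. By reads not divided by length, Ighm ranked between 575 and 668 among all genes of the 3-month libraries and was at rank 1676 in Old. Per kilobase, Ighm and Igkc were the highest members in the 3-month libraries, at 92.9 to 113 for Ighm and 85.3 to 171 for Igkc, while Jchain was the lowest at 0.460 to 0.773. Xbp1 and Igha were also low there, at 2.40 to 2.66 RPM per kilobase for Xbp1 and 0.888 to 2.36 for Igha. The plot of levels shows the place of Old, which lay below the other libraries for 7 members and above them for Igha, Jchain and Xbp1.

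**Figure D1:**
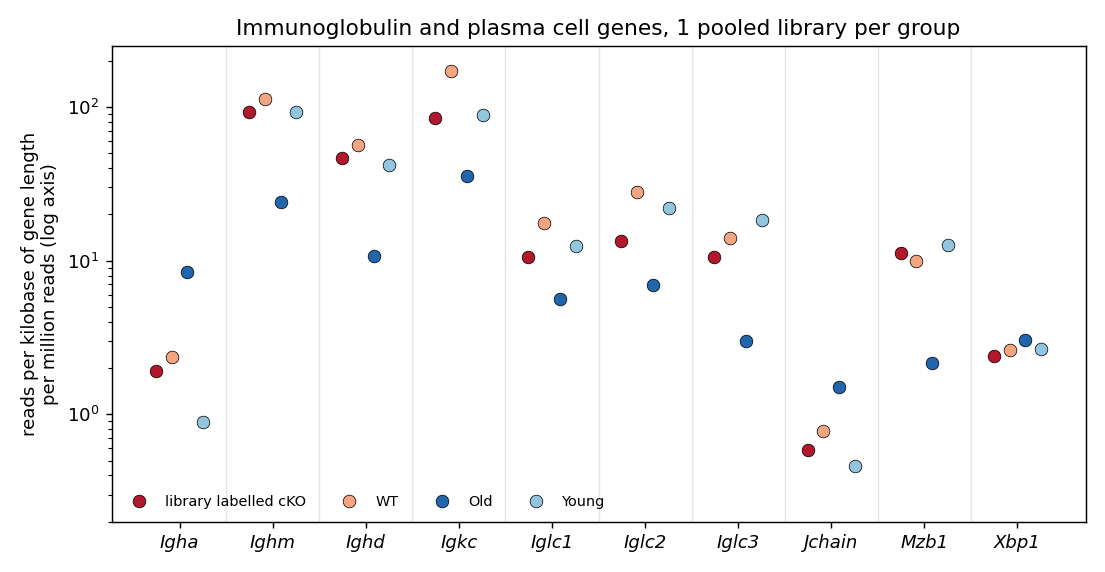
Level of each of the 10 genes (reads per kilobase of gene length per 1000000 reads, log axis) in the 4 libraries, 1 point per library and no error bar because each group is 1 pooled library. Old sits lowest for Ighm, Ighd, Igkc, Iglc1, Iglc2, Iglc3 and Mzb1 and highest for Igha, Jchain and Xbp1.

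Old platelets were set against Young ones to follow ageing. The heavy chains of unswitched B cells were lower in Old and the alpha and gamma chains were higher. Ighm fell 3.46-fold (3.20 to 3.74) and Ighd fell 3.49-fold (3.11 to 3.92), whereas Igha rose 10.6-fold (7.75 to 14.9). Of the 10 members 1 rose, 5 fell and 4 did neither. Among all genes, 6519 reached 100 reads in 1 of these libraries, of which 4.26% rose and 4.3% fell (8.56% in either direction), and 9 of the 10 members reached that count. The members' median log2 ratio was -1.33 (all 10 had at least 20 reads), with 3 of 10 ratios above 1, beside a median of -0.06 and 47.3% above 1 over all genes.

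Ighm encodes the constant region of IgM and is annotated as IG_C_gene on chromosome 12 of mm10 (113418558 to 113422730, minus strand). It had 844 reads in Old against 3196 in Young, and 3100 in the library labelled cKO and 3844 in WT. Old stood apart from all 3 younger libraries. Ighd, the constant region of IgD (chromosome 12, 113406604 to 113416324), had 379 reads in Old against 1448 in Young, and 1574 in the library labelled cKO and 1926 in WT. The intervals of the proportion of these adjoining genes overlapped between the libraries of each pair, with 44.9 Ighd reads per 100 Ighm reads in Old (39.7 to 50.8) and 45.3 in Young (42.6 to 48.2), and 50.8 in the library labelled cKO (47.8 to 54.0) and 50.1 in WT (47.4 to 52.9).

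Igha, the constant region of IgA, the antibody class of mucosal surfaces (chromosome 12, 113254830 to 113260236, minus strand), had 417 reads in Old against 43 in Young, and 91 in the library labelled cKO and 113 in WT. Old was the highest and Young the lowest, so the size of the difference depends on which 3-month library is taken. Set against WT, Old was 3.70-fold higher in Igha (3.00 to 4.59) and again past the rule, and 1 member rose and 7 fell, beside 4.54% and 4.22% of all genes with enough reads (8.75% in either direction). The gamma genes, which encode IgG, had too few reads to be called. Ighg1 had 62 reads in Old and 3 in Young, a ratio of 22.6 (7.39 to 113), and Ighg2c had 83 and 6 reads, a ratio of 15.1 (6.67 to 42.5). Ighg2b had 88 reads in Old and 32 in Young (ratio 3.01, 1.99 to 4.67), and Ighg3 had 17 and 13, a difference not detectable at this depth (ratio 1.43, 0.655 to 3.21). Ighg2a and the epsilon gene Ighe are listed in neither table. Together the gamma genes had 250 reads in Old and 54 in Young, a ratio of 5.07 (3.76 to 6.94), and 67 in the library labelled cKO and 90 in WT.

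Within the heavy chain reads of a library, the switched classes (alpha and gamma) took 35.3% in Old (95% Wilson interval 33.2% to 37.5%, of 1890 reads) and 2.05% in Young (1.68% to 2.49%, of 4741 reads). The share was 3.27% in the library labelled cKO (2.80% to 3.81%) and 3.40% in WT (2.97% to 3.89%), close to Young and far from Old. Alpha alone was 22.1% in Old and 0.907% in Young, and mu was 44.7% in Old and 67.4% in Young. These shares do not depend on library scaling. They do depend on gene length, since the deposited lengths are 2668 bases for Igha and 1886 for Ighm, and per length the switched share was 30.4% in Old and 1.56% in Young.

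**Figure D2:**
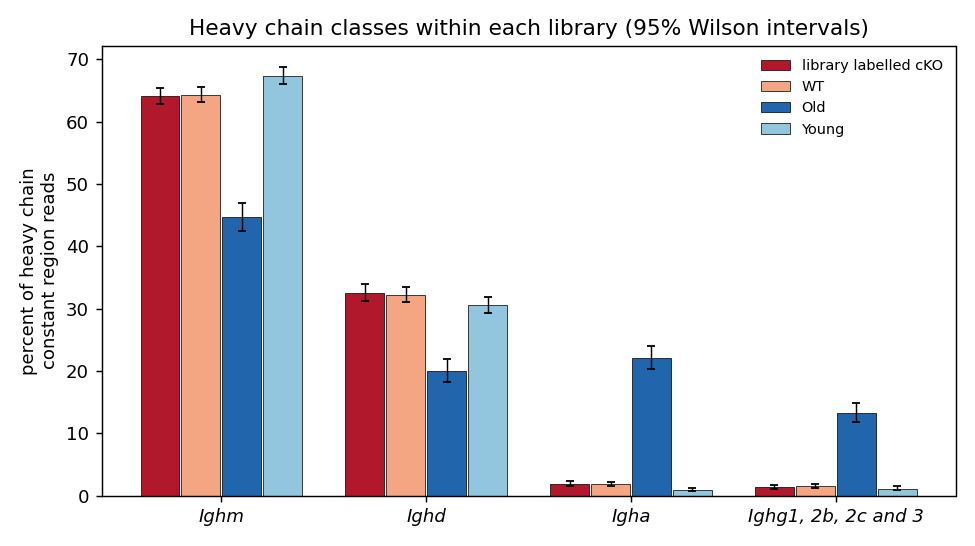
Share of each heavy chain class in the heavy chain constant region reads of a library (percent), with 95% Wilson intervals that cover counting error only. Alpha and gamma took 22.1% and 13.2% in Old, while in the library labelled cKO, WT and Young each stayed below 2%.

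The alpha and mu chains share a feature that Jchain uses. The secreted forms of both end in a tailpiece whose cysteine, next to the last residue, bonds to the J chain in polymeric IgA and IgM. The last 60 coding bases of the secreted transcripts, from GENCODE M21 on GRCm38, differ at 19 positions when set side by side without gaps. They are printed with the cysteine codon in capitals because Igha and Ighm, the genes that carry them, moved in opposite directions in Old.
Ighm, chr12:113420870-113420929, minus strand: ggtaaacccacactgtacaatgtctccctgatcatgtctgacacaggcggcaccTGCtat
Igha, chr12:113258771-113258830, minus strand: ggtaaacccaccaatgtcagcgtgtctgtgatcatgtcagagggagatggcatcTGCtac

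Jchain (chromosome 5, 88519809 to 88527891, minus strand), which encodes that joining chain, had 70 reads in Old against 21 in Young, and 26 in the library labelled cKO and 35 in WT. Old was the highest, and the 3-month libraries lay between 21 and 35 reads. Its ratio of Old to Young was 3.65 (2.21 to 6.26), past 2-fold at its bound but short of the minimum of 100 reads, and against WT it was 2.00 (1.32 to 3.10). Per 100 reads of Igha and Ighm together there were 5.55 Jchain reads in Old (4.30 to 7.06) and 0.648 in Young (0.401 to 0.993), and 0.815 in the library labelled cKO and 0.885 in WT. Per 100 Igha reads alone the order was the other way, with 16.8 in Old (12.8 to 21.7) and 48.8 in Young (27.5 to 84.1).

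Mzb1, an endoplasmic reticulum protein of marginal zone B cells, B1 cells and plasma cells that assists antibody assembly, went with Ighm and not with Jchain. Located on chromosome 18 (35647266 to 35649367, minus strand), it had 36 reads in Old against 209 in Young, and 180 in the library labelled cKO and 161 in WT. Mzb1 fell 5.30-fold in Old (3.71 to 7.78), and Old was the only library under 161 reads. Xbp1, the transcription factor of the unfolded protein response that plasma cells need (chromosome 11, 5520659 to 5525893, plus strand), had 182 reads in Old against 157 in Young, and 138 in the library labelled cKO and 153 in WT. Its Old to Young ratio was 1.27 (1.02 to 1.58), and every library lay between 2.40 and 3.03 RPM per kilobase. Xbp1 is expressed in many cell types, and counts per gene do not show its spliced, active form.

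**Figure D3:**
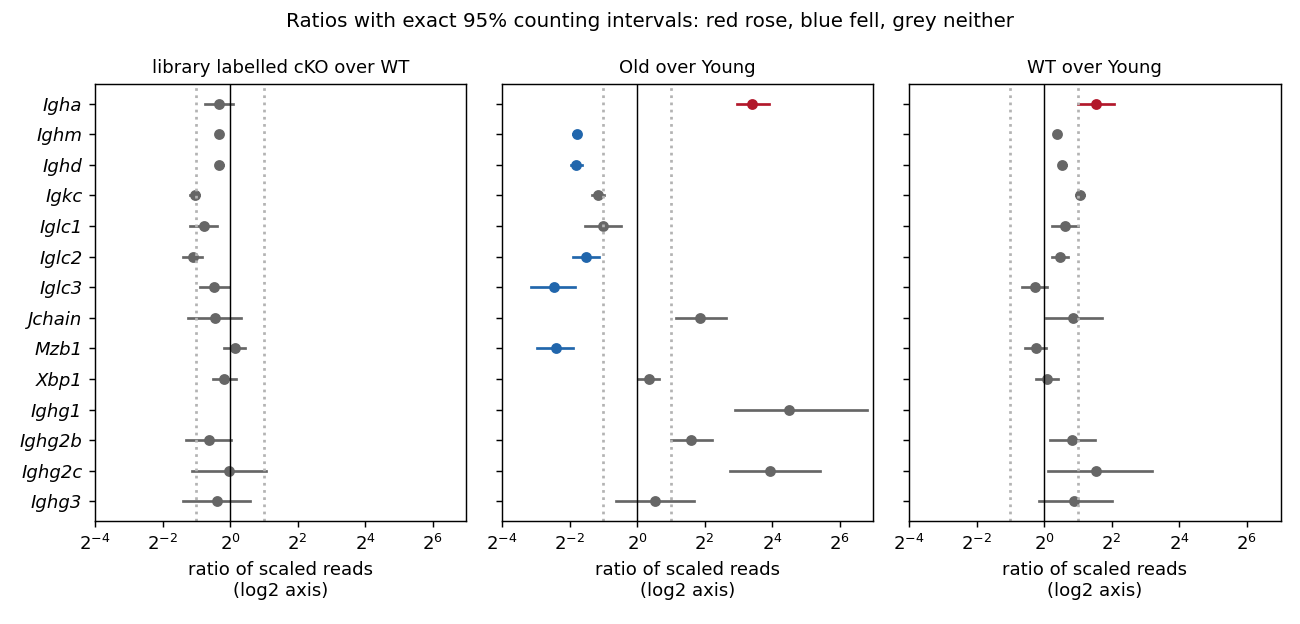
Ratio of scaled reads (log2 axis) with exact 95% counting intervals for the 10 genes and the gamma genes in 3 comparisons, where red marks genes that rose, blue genes that fell and grey neither. In Old over Young the intervals of Ighm, Ighd, Iglc2, Iglc3 and Mzb1 lie below 0.5 and that of Igha above 2. Those of Jchain, Ighg1 and Ighg2c also lie above 2 but are grey because these genes had under 100 reads. In the library labelled cKO over WT no gene passed.

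All light chain members were lower in Old than in Young. Igkc, the kappa constant region (chromosome 6, 70726435 to 70726966, plus strand), had 348 reads in Old against 852 in Young, and 803 in the library labelled cKO and 1636 in WT. Its Old to Young ratio of 0.447 (0.394 to 0.507) missed the rule, and against WT it was 0.213 (0.189 to 0.239). Iglc2 (chromosome 16, 19198396 to 19200351, minus strand) had 78 reads in Old against 244 in Young, and fell 2.86-fold (2.21 to 3.74). Iglc3 (19065230 to 19065681) had 25 reads in Old against 151 in Young, and fell 5.52-fold (3.60 to 8.79). Iglc1 (19061618 to 19062071) had 47 reads in Old and 103 in Young, a ratio with an interval of 0.346 to 0.712, which did not pass. Old had the lowest count of every light chain gene, and WT the highest of each except Iglc3, which was highest in Young.

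The lambda constant genes Iglc2 and Iglc3 are close copies, so reads may be split between them. The coding sequences of Iglc2 and Iglc3 differ at 11 of 314 aligned bases (96.5% identity) and share a stretch of 79 bases, while Iglc1 has 72.9% identity to Iglc2 and 73.9% to Iglc3. None of Iglc1, Iglc2 and Iglc3 shares more than 8 coding bases in a row with Igkc, and Iglc4 was not compared. The stretch that holds all 11 differences, 255 bases of each (GENCODE M21, GRCm38, minus strand), is printed with the differing positions in capitals, because the separate counts of Iglc2 and Iglc3 rest in part on them. Sequence outside the coding part was not compared.
Iglc2, chr16:19198586-19198840: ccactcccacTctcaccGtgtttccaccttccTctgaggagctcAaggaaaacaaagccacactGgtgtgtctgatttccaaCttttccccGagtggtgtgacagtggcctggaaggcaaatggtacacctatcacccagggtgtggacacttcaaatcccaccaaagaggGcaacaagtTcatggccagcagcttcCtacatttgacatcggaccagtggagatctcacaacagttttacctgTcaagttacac
Iglc3, chr16:19065415-19065669: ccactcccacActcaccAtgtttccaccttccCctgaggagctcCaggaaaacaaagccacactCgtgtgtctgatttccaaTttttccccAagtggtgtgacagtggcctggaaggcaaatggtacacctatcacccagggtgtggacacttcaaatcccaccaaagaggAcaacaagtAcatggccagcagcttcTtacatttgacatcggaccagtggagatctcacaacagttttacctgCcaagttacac
The single values of Iglc2 and Iglc3 are uncertain for this reason. As a pair they had 103 reads in Old and 395 in Young, 3.50-fold lower (2.81 to 4.39), and 230 in the library labelled cKO and 424 in WT. Other genes overlap some members, and no source used here states whether strand was used in counting. 2010309G21Rik lies antisense to Iglc1 and Iglc3 with 2 reads in Old and 13 in Young, and Gm30211 lies over Igkc on the same strand with 9 and 85 reads. Spata24 overlaps Mzb1 and had at most 6 reads in any library.

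Lambda held a varying part of the light chain reads. Its share was 30.1% in Old (26.3% to 34.3%) and 36.9% in Young (34.4% to 39.5%), with intervals that do not overlap. It was 28.4% in the library labelled cKO (25.8% to 31.1%, including 3 reads of Iglc4, which had 0 in WT and is not listed for Old and Young) and 25.8% in WT (24.0% to 27.6%). Thus Young had the largest lambda share, and WT, of like age and genotype, the smallest. Iglc3 alone made up 11.2% of light chain reads in Young (9.61% to 13.0%) and 5.02% in Old (3.42% to 7.31%), against 7.49% in the library labelled cKO and 5.17% in WT.

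Other genes of plasma cells did not move in 1 direction in Old. Of 14 listed plasma cell identity genes 7 reached 100 reads, and the others could not be called. Among the 14, 0 rose, 2 fell and 12 did neither, beside 4.26% and 4.3% of all genes that reached that count. Their median log2 ratio was -0.26 over the 11 with at least 20 reads. Those that fell were Tnfrsf13b, a receptor for the B cell survival factors BAFF and APRIL (89 reads in Old and 397 in Young, 4.07-fold), and Pou2af1, a B cell transcriptional coactivator (400 and 1145 reads, 2.61-fold). Both are expressed by B cells as well. Prdm1, which encodes Blimp-1, the regulator of plasma cell differentiation, had 45 reads in Old and 26 in Young (ratio 1.90, 1.14 to 3.20). Sdc1, the plasma cell surface proteoglycan CD138, had 14 reads in Old and 0 in Young, which allows up to 3, but WT had 15. Irf4, a factor of activated B cells and plasma cells, had a ratio of 0.636 (0.495 to 0.815).

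Most genes of the endoplasmic reticulum machinery did not pass the rule in Old. The 35 listed folding, translocation and stress genes held 0.273% of reads in Old and 0.234% in Young. In Old 2 of them rose and 0 fell, of 26 that reached 100 reads, beside 4.26% and 4.3% of all genes, so their share of calls lay near that of all genes. The median log2 ratio of all 35 was 0.34, with 27 above 1. Ssr1, a subunit of the translocon-associated complex, had 3677 reads in Old against 1023 in Young and rose 3.94-fold (3.67 to 4.22). Atf6, a stress sensor of that organelle, had 1326 and 495 reads and rose 2.93-fold (2.64 to 3.26). Ssr4 had a ratio of 1.98 (1.79 to 2.20), and Hspa5, the chaperone BiP, had 482 reads in Old and 511 in Young. Secretory genes are in use in megakaryocytes and other cells too.

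Many markers of B cells were lower in Old, as were Ighm, Ighd and Mzb1. Of 22 B cell markers 11 fell, 0 rose and 11 did neither, and of 10 MHC class II genes 5 fell and 0 rose, beside 4.26% of all genes that rose and 4.3% that fell. Their median log2 ratio was -1.53, and all 22 had reads in each library. Their summed level was 305 RPM in Old and 716 RPM in Young, and 774 RPM in the library labelled cKO and 776 RPM in WT. Pax5, the transcription factor of B cell identity, had 602 reads in Old against 2606 in Young, and Cd79a, a signalling chain of the B cell receptor, had 115 and 397. Ralgps2 had 1702 reads in Old against 1672 in Young, and Cd37 had 846 and 991, so these did not share the difference. The full sum had a ratio of 0.474 (0.459 to 0.489). Without both genes the sum was 167 RPM in Old and 570 RPM in Young, a ratio of 0.326 (0.313 to 0.340). They were left out after their values were seen, which lowers the ratio by construction, so no conclusion is drawn from it. Fewer B lineage cells and less RNA per cell cannot be told apart in these bulk samples, and the part of B cells in the immunoglobulin differences was not tested. Neutrophil markers, too, set Old apart, with 15 of 16 listed and 845 RPM in Old against 32.0 RPM in Young, where 5 of the 15 had no reads. T and NK cell markers had 184 RPM in Old and 337 RPM in Young, and erythroid markers 11518 and 21668 RPM. Monocyte markers had 2584 RPM in Old and 3531 RPM in Young, or 65.8 and 32.8 RPM without Lyz2. The part of these cells in the result was not tested.

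**Figure D4:**
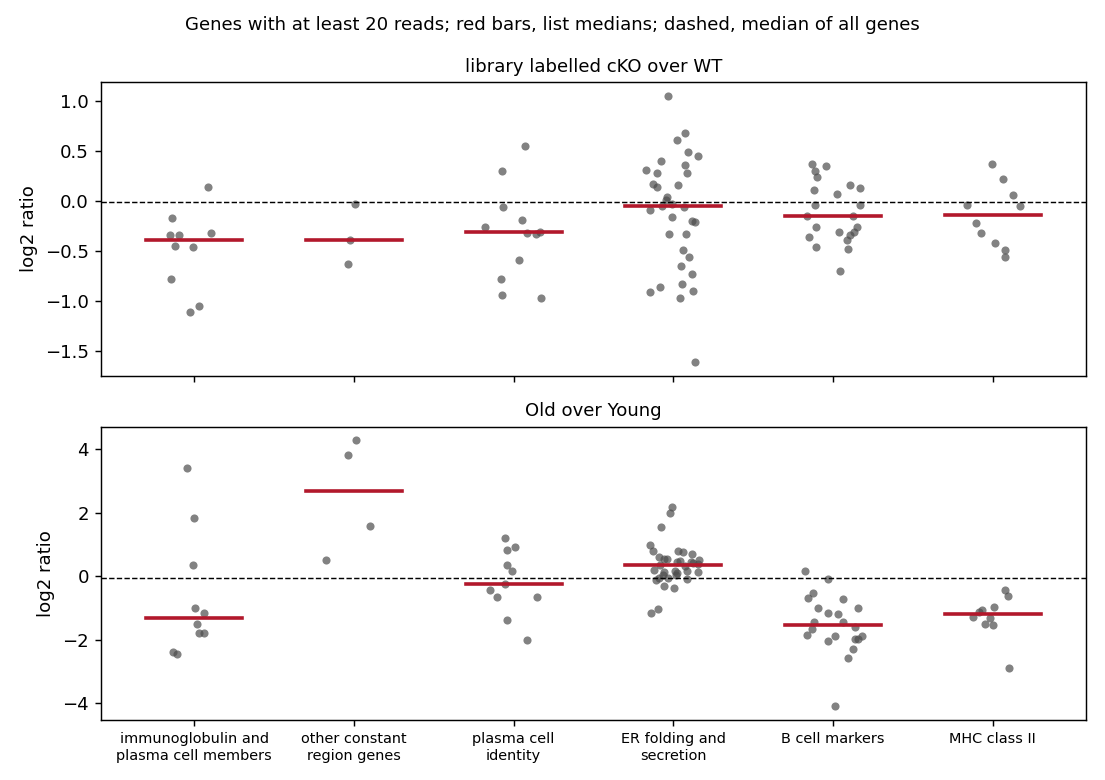
Log2 ratio (pseudocount 0.5 read) of each gene with at least 20 reads over both libraries, by list, for Old over Young and for the library labelled cKO over WT. In Old the median of B cell markers is -1.53 and that of the 10 members -1.33, while the other constant region genes lie at 0.51 to 4.29 and the endoplasmic reticulum genes have a median of 0.34.

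The library labelled cKO was set against WT to ask about loss of HuR in platelets, which its Elavl1 reads do not show. Immunoglobulin reads were lower in it, but no member passed the rule. The constant region members had 5883 reads in the library labelled cKO and 8087 in WT, a ratio of 0.715 (0.691 to 0.739). Of the 10 members 0 rose and 0 fell, beside 2.52% and 1.71% of the 6273 genes that reached 100 reads. Their median log2 ratio was -0.39 with 1 of 10 above 1, beside -0.01 and 49.3% over all genes.

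Light chains lay lowest, though the intervals of Iglc1 and Iglc3 overlapped that of Ighm. Igkc had a ratio of 0.482 (0.443 to 0.525) and Iglc2 one of 0.463 (0.377 to 0.565), while Ighm had 0.792 (0.755 to 0.831) and Ighd 0.803 (0.751 to 0.859). Iglc1 had 0.580 (0.438 to 0.763) and Iglc3 0.724 (0.54 to 0.968). As a pair, Iglc2 and Iglc3 had 0.533 (0.452 to 0.627). Light chain reads per 100 heavy chain reads were 23.1 in the library labelled cKO (21.7 to 24.7) and 36.9 in WT (35.1 to 38.8). Old had 26.3 and Young 28.5, so by this measure WT lay farthest from the rest. For lambda, the library labelled cKO was low against both WT and Young. Its reads of Iglc1, Iglc2 and Iglc3 together had a ratio of 0.545 (0.473 to 0.626) to WT and 0.694 (0.601 to 0.801) to Young. For Igkc its ratio to Young was 1.03 (0.938 to 1.14). The ratios of Igha (0.791), Jchain (0.730, 0.422 to 1.25), Mzb1 (1.10, 0.883 to 1.37) and Xbp1 (0.886, 0.699 to 1.12) had intervals that include 1, so differences were not detectable at this depth. B cell marker sums had a ratio of 0.965 (0.942 to 0.988), and 0 of 22 passed, of which 20 reached 100 reads. Other blood cell markers differed in this comparison, and their part in the result was not tested. Of 15 erythroid markers listed, 14 reached 100 reads, and 10 rose and 1 fell, beside 2.52% and 1.71% of all genes with that count. Their sum was 16210 RPM in the library labelled cKO and 8348 RPM in WT. Neutrophil markers had 41.6 RPM in the library labelled cKO and 68.8 RPM in WT, where 6 and 5 of the 15 had no reads. The 15 monocyte markers had 2339 RPM in the library labelled cKO and 3429 RPM in WT (33.1 and 46.0 RPM without Lyz2). Only 4 neutrophil and 4 monocyte markers reached 100 reads, and 0 genes passed in either list. Among 35 endoplasmic reticulum genes, 26 of which reached 100 reads, 0 passed. Ddit3, a stress-induced transcription factor, had a ratio of 2.08 (1.74 to 2.49), and Ern1, the sensor that splices Xbp1 mRNA, had 25 reads in the library labelled cKO and 76 in WT. Set against Young, the constant region reads of the library labelled cKO had a ratio of 1.07 (1.03 to 1.11), the other direction from WT, and again 0 members passed, beside 2.07% of genes that rose and 0.793% that fell.

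WT and Young are both wild-type pools of 3 months, so their difference shows how far libraries of 1 labelled kind can lie apart. The constant region members had 8087 reads in WT and 6037 in Young, a ratio of 1.46 (1.42 to 1.51). Igha rose 2.87-fold in WT over Young (2.00 to 4.18), and 0 members fell, beside 0.439% and 0.565% of 6373 genes. Igkc had a ratio of 2.10 (1.93 to 2.28). That gap in Igkc was close in size to its 2.24-fold lower level in Old than in Young and its 2.07-fold lower level in the library labelled cKO than in WT. By contrast the gap of Ighm (1.31) and Ighd (1.45) between WT and Young was smaller than that between Old and either of them. Erythroid markers had 8348 RPM in WT and 21668 RPM in Young (5 fell), neutrophil markers 68.8 and 32.0 RPM (2 rose), and T and NK cell markers 195 and 337 RPM (0 passed), and their part in these gaps was not tested. Tables were scaled separately, and this comparison used the reads of the 14652 genes listed in both.

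Variable segments gave few reads, spread over many genes. The 146 segments listed had 213 reads in Old and 572 in Young, a ratio of 0.408 (0.347 to 0.478), and 514 in the library labelled cKO and 931 in WT, a ratio of 0.542 (0.486 to 0.605). No segment reached 100 reads in any library. Among Ighv genes, 13 had reads in Old against 35 in Young, and 34 in the library labelled cKO and 47 in WT. Of Igkv genes 16 had reads in Old against 51 in Young, and 51 in the library labelled cKO and 59 in WT. The number of segments seen moved with the reads, which were not thinned to 1 depth, and the part of depth was not tested.

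Old had 1 heavy chain segment far above its others. Ighv1-23 had 36 reads in Old against 2 in Young, and 5 in the library labelled cKO and 16 in WT. It held 39.1% of Ighv reads in Old (29.8% to 49.3%, of 92 reads), whereas the leading segment held 9.55% in Young (Ighv9-3), 14.9% in the library labelled cKO (Ighv1-26) and 7.14% in WT (Ighv6-3, with Ighv1-26 at the same count). Igkv6-15 had 19 reads in Old and 10 in Young. Lambda segments differed in the other direction. Iglv1 had 0 reads in Old, which allows up to 3, against 42 in Young, and 37 in the library labelled cKO and 67 in WT. Iglv3 had 13 reads in Old and 41 in Young. Variable segments are a family of similar sequences and their single counts are uncertain.

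**Figure D5:**
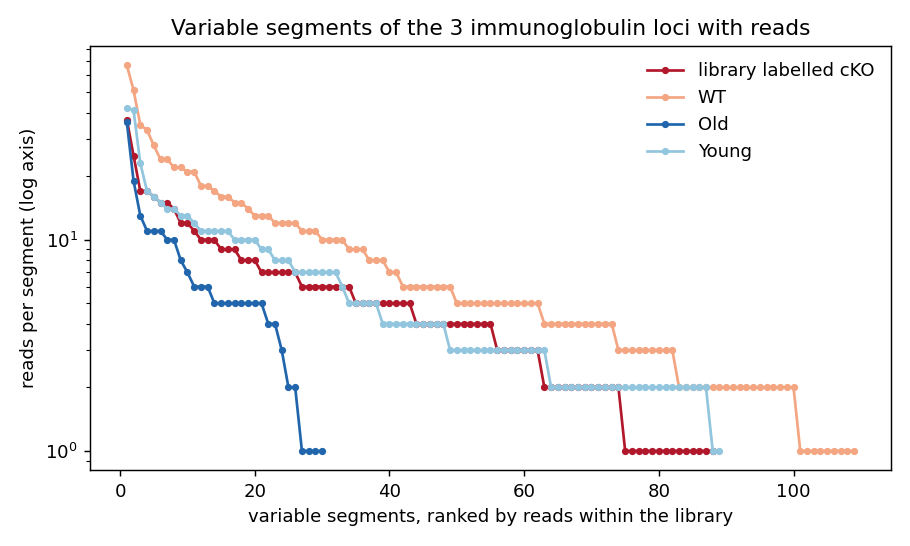
Reads per variable segment (log axis) against the rank of the segment within its library, for all segments with reads, 1 line per library. The line of Old is the shortest, and its leading segment had 36 reads, while the leading segment had 42 in Young, 37 in the library labelled cKO and 67 in WT.

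Bank1, a B cell scaffold protein, was among the 5 genes outside the immunoglobulin loci whose profile lay nearest to the summed constant region members. Likeness was the Euclidean distance between centred log2 RPM values over the 4 libraries, computed for 7688 genes with at least 200 reads in all. The nearest was Ube2d1, a ubiquitin-conjugating enzyme, at a distance of 0.0754, with 40 reads in Old and 117 in Young, and 106 in the library labelled cKO and 153 in WT. Gm33056 (0.113), Farsb (0.117), Bank1 (0.142) and Fchsd2 (0.154) followed. With 4 points per gene and so many genes compared, these distances are a description only.

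In the authors' deposited table Igha had a log2 fold change of 3.40 for Old over Young, with an adjusted p = 1.23e-09. The same deposited table gives -1.79 for Ighm (adjusted p = 0.000945), -2.40 for Mzb1 (adjusted p = 7.85e-05), 1.86 for Jchain (adjusted p = 0.0119) and -1.16 for Igkc (adjusted p = 0.0514). For the library labelled cKO over WT the authors' deposited table has -1.05 for Igkc (adjusted p = 0.150). Their test is not stated in these sources, and each value sets 1 library against 1.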

How the data were processed

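RNA was extracted with TRIzol from platelets, per the labels' protocols. The submitters' processing notes name build mm10 and, without role or order, featureCounts 1.5.0-p3, HISAT2 2.0.5, CASAVA and DESeq2 1.20.0. The authors deposited a signal per gene and library in 2 tables, each scaled separately. The deposited signal values are whole reads times 1 step per library (every value whole within 0.02 read), and those reads were recovered. A further 4 per-sample columns match no sample name and were not used. Genes with fewer than 2 reads over a table's libraries are not listed in it. The authors also deposited per gene a log2 fold change with its p-value, raw and adjusted (per the file headers), and a gene length in bases.

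The design assumed no test, since 1 library per group leaves none. Ratios used TMM sizes (edgeR 4.0.16, R 4.3.3), and exact Clopper-Pearson intervals came from scipy 1.17.1. Reads of PCR products without molecular identifiers are not independent molecules, so intervals cover counting error only. A count of 0 allows up to 3 reads, or 0.162 to 0.169 RPM. Lists were described by counts and medians (at least 20 reads, pseudocount 0.5). Functions were tested on simulated data. Sequences were aligned with MAFFT 7.526. Member coordinates equal those of GENCODE M21 except the start of Mzb1. Alternatives were total-read scaling, DESeq2 1.42.0 size factors, other thresholds, pseudocounts and gene sums, and the other 3-month library.

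The members and lists were chosen with earlier results of these data known. The naming rule took all members, other constant region genes, list genes past the rule or with most reads, the 3 leading variable segments per library and the 5 nearest profiles. Others were named after their values were seen.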

Additional observations from a re-analysis of the deposited data

How the results depend on the processing

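For Old over Young, the ratio of constant region reads (0.388) was 0.348 with total-read scaling, 0.427 over all immunoglobulin genes and 0.265 against WT. The members' median log2 ratio (-1.33) was -1.49 with total-read scaling and -2.06 against WT. Between 6 and 8 of the 10 members passed under every alternative tried. The share of all genes that passed was found only for the 2-fold bound with 100 reads and TMM sizes. Member counts under other settings therefore have no such share beside them, and no conclusion is drawn from them. Igha rose and Ighm, Ighd, Iglc2, Iglc3 and Mzb1 fell with all 3 scalings and against WT, Igkc also fell with total reads and against WT, Iglc1 also fell against WT, and Jchain rose where no minimum count was set. For the library labelled cKO over WT, the ratio of 0.715 was 0.774 without Igkc and reversed to 1.07 against Young. There the median of -0.39 became -0.00 (-0.0021), and at a 1.5-fold bound 2 members (Igkc and Iglc2) fell. For WT over Young the ratio of 1.46 was 1.35 with total reads and 1.36 without Igkc. There the count of 1 member became 0 with total reads and 2 at a 1.5-fold bound. How many of all genes pass at a 1.5-fold bound was not found for either comparison, so these counts cannot be weighed. Per gene length, an alternative chosen after seeing the data, the switched share was 30.4% in Old, 1.56% in Young, 2.59% in the library labelled cKO and 2.64% in WT. The cause of these shifts was not tested. No paired analysis was possible because each group is 1 library. Depth limits Jchain, the gamma genes and single variable segments, which had under 100 reads in each library.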

Other observations

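Receptors that bind antibody did not move in 1 direction in Old. Of 11 listed, 5 reached 100 reads, and 1 rose, 2 fell and 8 did neither, beside 4.26% of all genes that rose and 4.3% that fell. Fcgr3, an activating IgG receptor of myeloid cells, with 131 reads in Old and 27 in Young, rose 5.31-fold (3.49 to 8.37), and Fcgr4 had 46 and 6 reads. Fcmr, the IgM receptor of B cells, with 90 reads in Old and 388 in Young, fell 3.94-fold (3.12 to 5.01). Fcer2a, the low-affinity IgE receptor of B cells, with 10 reads in Old and 197 in Young, fell 18.0-fold (9.58 to 38.1). Fcer1g, the signalling chain that platelets use with the collagen receptor, had 9595 reads in Old and 8849 in Young, a ratio of 1.19. In the library labelled cKO 0 of the 9 receptors listed passed against WT, but only 4 reached 100 reads. Among all genes with that count 2.52% rose and 1.71% fell.

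Genes of immunoglobulin gene rearrangement and of developing B cells had few reads. Rag1, a subunit of the recombinase that joins variable segments, had 0 reads in Old and 5 in Young. Vpreb3, expressed in developing B cells, had 17 reads in Old against 61 in Young, and 48 in the library labelled cKO and 56 in WT.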
